A study of Schizosaccharomyces pombe with 2 samples.

Results

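The genes of ubiquitin conjugation and deubiquitination were followed in *sgo2*Δ and wt cells of *S. pombe*. They were chosen by name alone, as single-gene probe sets whose platform symbol belongs to the ubiquitin, E2, HECT ligase, F-box, ubiquitin protease, COP9 signalosome, SUMO or NEDD8 gene names. Their signals were not used, though earlier results of these data were known when the choice was made. The choice gave 68 probe sets for 67 genes, out of 2917 single-gene probe sets for 2899 genes. All 67 genes reached a signal of 100 on at least 1 array, the floor used for counting, as did 2796 of all genes. The *sgo2*Δ array came from strain JP2247 and the wt array from strain JK107. Both strains are h- and were collected in exponential growth in YES, a rich liquid medium, at 32 °C, and no drug or other treatment separates them. The labels name no further allele in either strain. Poly(A) RNA (0.3 μg) of each was labelled and hybridized to 1 GeneChip Yeast Genome 2.0 array. As each strain has a single array, the differences below were measured once and carry no p-value, and precision is limited by the number of arrays.

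Ubiquitin is a small protein that is joined to other proteins as a tag. An activating enzyme (E1) charges it, a conjugating enzyme (E2) carries it, and a ligase (E3) chooses the substrate, which is then often destroyed by the proteasome. In HECT ligases the ligase itself carries the ubiquitin, whereas in cullin ligases a scaffold with the RING protein Rbx1 brings the E2 close to a substrate held by an F-box protein through Skp1. SUMO and NEDD8 are related modifiers with enzymes of their own, ubiquitin proteases remove ubiquitin again, and the COP9 signalosome removes NEDD8 from cullins. In fission yeast this machinery times cell cycle steps, among them the loss of the inhibitor Rum1 and of the replication factor Cdc18.

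Signals are the scaled intensities given by the authors, and each ratio is the log2 of the *sgo2*Δ signal over the wt signal. The target gene *sgo2*, which encodes Shugoshin 2, had a signal of 2.81 in *sgo2*Δ cells and 582 in wt cells, so the labels fit the deletion. The log2 ratio of all 2796 genes had a median of 0.13, and gene values are therefore read against 0.13 rather than 0. Control transcripts spiked in by the array protocol also stood higher on the *sgo2*Δ array, with medians of 0.10 for 9 probe sets of hybridization controls and 0.51 for 12 probe sets of poly(A) controls, and the median was 0.54 for 18S and 28S ribosomal RNA (6 probe sets). The part of these shifts in the gene ratios was not tested. A change in RNA per cell and a change in the share of cells that hold the RNA cannot be told apart in such cultures.

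None of the 67 genes was 2-fold higher or lower in *sgo2*Δ cells, beside 0.536% of all genes higher and 0.0358% lower by that much. Their log2 ratios ran from -0.34 for *pof4* to 0.44 for *ubp4*, with a median of 0.18. The middle 50% lay between 0.08 and 0.23, against 0.05 and 0.22 for all genes. At a lower fold of 1.3, 2 of 67 genes (2.99%) were higher, *ubp4* and *ubp13*, beside 3.54% of all genes, and none was lower, beside 0.25% of all genes. A log2 ratio above 0 was found for 60 genes (89.6%), beside 84.7% of all genes, and one above the median of all genes for 42 (62.7%), beside 50%. The last of these shares differed most from that of all genes, and the median of the group exceeded theirs by 0.05. After centring on the median of all genes 25 members had a log2 ratio below 0, against 7 before, no member was 1.3-fold higher (1.39% of all genes) and 1, *pof4*, was 1.3-fold lower (1.14% of all genes).

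**Figure D1:**
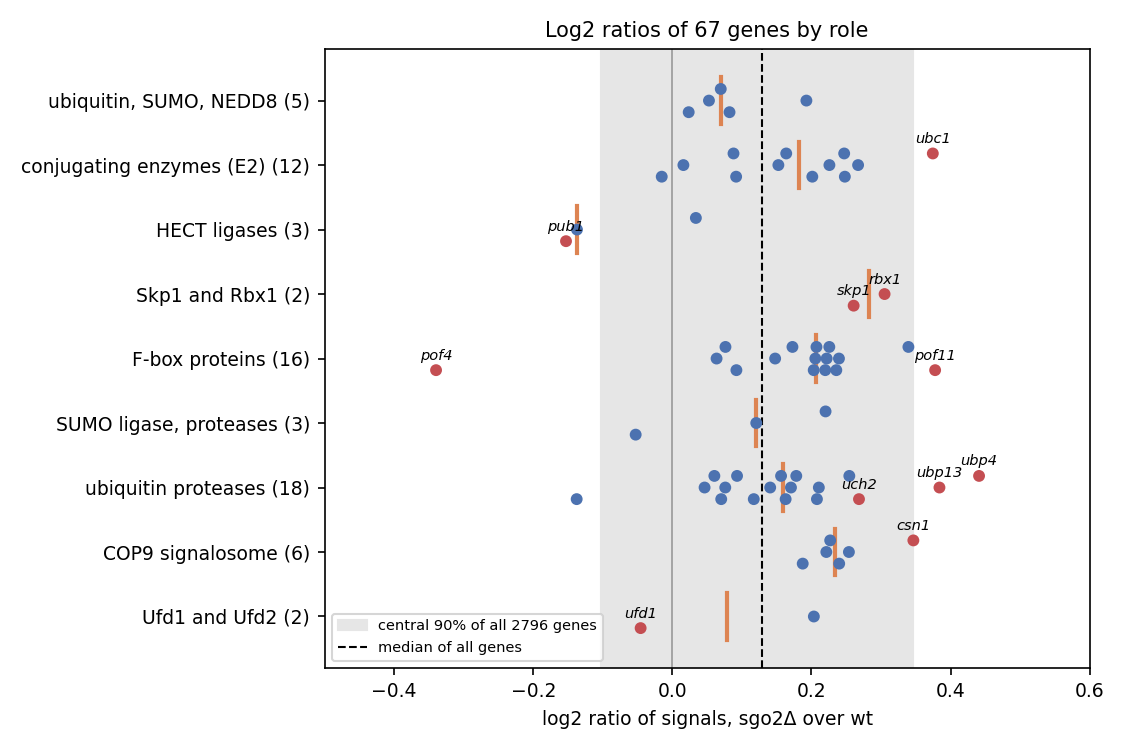
Each point is 1 gene, placed by its log2 ratio (*sgo2*Δ over wt, horizontal axis) in the row of its role, with the number of genes in parentheses. Orange bars are row medians, the dashed line is the median of all genes (0.13) and the grey band holds the central 90% of all 2796 genes. Named red points lie outside the central 90% of the 200 genes nearest to them in signal. The 3 HECT ligase genes lie left of the dashed line and the 6 COP9 signalosome genes right of it.

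The modifiers themselves had small ratios. Ubiquitin is made from fusions with ribosomal proteins, here *ubi1* and *ubi3*, and from the polyubiquitin gene *ubi4*. The signal of *ubi4* was 10938 in *sgo2*Δ cells and 10423 in wt cells (log2 ratio 0.07). The signal of *ubi1* was 10700 in *sgo2*Δ cells and 10317 in wt cells (0.05). All 3 of these ubiquitin genes had nearly equal signals on both arrays, and these signals lay near the top of the scale, where the highest of any probe set was 11662 in *sgo2*Δ cells and 11785 in wt cells. Genes in the brightest 10% of the arrays had a median log2 ratio of 0.04, so a ratio of this size was usual at such signals. A further ubiquitin fusion gene, *ubi2*, is no member because the platform lists it as *uep1*, and its signal was 11338 in *sgo2*Δ cells and 10746 in wt cells (0.08, inside its band). The gene *ubi3* was the only member with more than 1 probe set. Its own probe set read 11544 in *sgo2*Δ cells and 11270 in wt cells (0.03), and a probe set whose suffix marks a match to several transcripts read 8425 and 8353 in *sgo2*Δ and wt cells (0.01). Both ratios were small. The probe set of *ubi4* carries a suffix for possible cross-hybridization. As ubiquitin genes repeat one coding sequence, their signals cannot be assigned to single genes with certainty.
The SUMO gene *pmt3* had a signal of 3149 in *sgo2*Δ cells and 2975 in wt cells (0.08), and the NEDD8 gene *ned8* had a signal of 2391 in *sgo2*Δ cells and 2092 in wt cells (0.19). Of the 5 modifier genes, *ned8* alone lay above the median of all genes. After centring, *ubi1*, *ubi3*, *ubi4* and *pmt3* had log2 ratios below 0 (from -0.10 to -0.05), and with quantile normalization *ubi3* (-0.0064) and *pmt3* (-0.09) did.

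The 12 E2 genes had a median log2 ratio of 0.18 and ran from -0.02 to 0.37. The largest ratio was that of *ubc1*, with a signal of 2122 in *sgo2*Δ cells and 1637 in wt cells, a ratio of 1.296 that stayed just under the 1.3-fold limit (log2 ratio 0.374 against a limit of 0.379). Its ratio lay above the central 90% of the 200 genes nearest to it in signal, which ran from -0.03 to 0.36. Such a band stands in for a replicate spread here, and it shows only how genes of like signal scattered between these arrays. By this measure 8 of the 67 members (11.9%) lay above their band and 3 (4.48%) below it, beside 5.44% and 5.4% of all genes, and the bands do not depend on centring.
The other E2 genes lay inside their bands. Among them, *ubc11*, which encodes the E2 UbcP4 used in the destruction of mitotic cyclin, had a signal of 2689 in *sgo2*Δ cells and 2235 in wt cells (0.27). The gene of Ubc13, which builds chains through lysine 63 of ubiquitin, had a signal of 5310 in *sgo2*Δ cells and 4540 in wt cells (0.23). Its partner gene in this task, *mms2* (also *spm2*), is no member and had a log2 ratio of 0.23 as well. The E2 gene *rhp6*, also called *ubc2*, is no member because the platform lists it as *rhp6*. Its signal was 4590 in *sgo2*Δ cells and 4233 in wt cells (0.12, inside its band). The SUMO E2 gene *hus5* (0.16) and the NEDD8 E2 gene *ubc12* (0.15) were close to the median of all genes. The signal of *ubc12* was among the dimmest of the group, at 198 in *sgo2*Δ cells and 178 in wt cells, where bands were wide (-0.34 to 0.54). The E2 genes *ubc7* (0.20) and *ubc6* (0.09), whose budding yeast counterparts act in degradation at the endoplasmic reticulum, also lay inside their bands. At the low end, *ubc16* had a signal of 772 in *sgo2*Δ cells and 781 in wt cells (-0.02), and *ubc4*, a general E2 near the top of the scale, read 10755 in *sgo2*Δ cells and 10637 in wt cells (0.02). After centring and with quantile normalization *ubc4* lay below 0 (-0.11 and -0.02).

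Among the members, the 3 HECT ligase genes, all found by the name *pub*, were the class with the lowest median. Ligase genes with other names were not placed in this class, so it does not stand for all ligases of this type. Such a gene, *ptr1*, is no member and went the other way. Its signal was 2367 in *sgo2*Δ cells and 1927 in wt cells (log2 ratio 0.30, inside its band). The 3 *pub* genes had a median log2 ratio of -0.14, which is 0.27 below the median of all genes. The signal of *pub1*, a relative of the human ligase NEDD4 and of budding yeast Rsp5, was 1361 in *sgo2*Δ cells and 1513 in wt cells (log2 ratio -0.15). This was below the band of genes of like signal (-0.04 to 0.35), and 2702 of the 2796 genes had a larger ratio. For *pub3* the signal was 599 in *sgo2*Δ cells and 658 in wt cells (-0.14), inside its band (-0.19 to 0.35). For *pub2* it was 328 in *sgo2*Δ cells and 321 in wt cells (0.03), inside its band as well (-0.19 to 0.40). None of the 3 differed by as much as 1.3-fold, and all 3 lay under the median of all genes.

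Among the parts shared by cullin ligases that contain F-box proteins, *skp1* and *rbx1* were both higher in *sgo2*Δ cells than genes of like signal. The adaptor gene *skp1* had a signal of 5302 in *sgo2*Δ cells and 4425 in wt cells (log2 ratio 0.26, band -0.04 to 0.25). The RING protein gene *rbx1*, also called *pip1*, had a signal of 4210 in *sgo2*Δ cells and 3408 in wt cells (0.31, band -0.01 to 0.25). Each exceeded its band by little, and their ratios in linear terms were 1.20 and 1.24. The cullin genes were not members, because the platform lists them as *cul1* and *cul3* and not as *pcu1* and *pcu3*. The signal of *cul1* was 618 in *sgo2*Δ cells and 537 in wt cells (0.20), and that of *cul3* was 656 in *sgo2*Δ cells and 664 in wt cells (-0.02). Both cullins lay inside their bands.

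F-box proteins hold the substrates. The 16 genes of this class had a median log2 ratio of 0.21, and 12 of them lay above the median of all genes. Most stood close together, with the middle 50% between 0.13 and 0.23. The genes *pop1* and *pop2*, whose products act together in the destruction of Rum1 and Cdc18, had nearly the same ratio. The signal of *pop1* was 975 in *sgo2*Δ cells and 847 in wt cells (0.20), and that of *pop2* was 1133 in *sgo2*Δ cells and 971 in wt cells (0.22). Neither left its band.
The highest F-box ratio was that of *pof11*, with a signal of 1756 in *sgo2*Δ cells and 1351 in wt cells (0.38, band -0.06 to 0.34). Next came *pof8*, whose product is now known as the telomerase component Lar7, with a signal of 1565 in *sgo2*Δ cells and 1237 in wt cells (0.34, inside its band of -0.09 to 0.34). The gene *pof11* fell just short of 1.3-fold. Other named F-box genes were nearer the middle, with log2 ratios of 0.15 for *pof3*, needed for genome integrity, 0.09 for *pof1* and 0.08 for *pof6*. The gene *pof4* stood apart from the class. Its product is the counterpart of elongin A, and its signal was 168 in *sgo2*Δ cells and 212 in wt cells (log2 ratio -0.34). Of all 2796 genes, 2781 had a larger ratio. It was dim, however, and lay only just below its wide band (-0.33 to 0.54). The dimmest member, *pof9*, had a signal of 144 in *sgo2*Δ cells and 138 in wt cells (0.06).

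**Figure D2:**
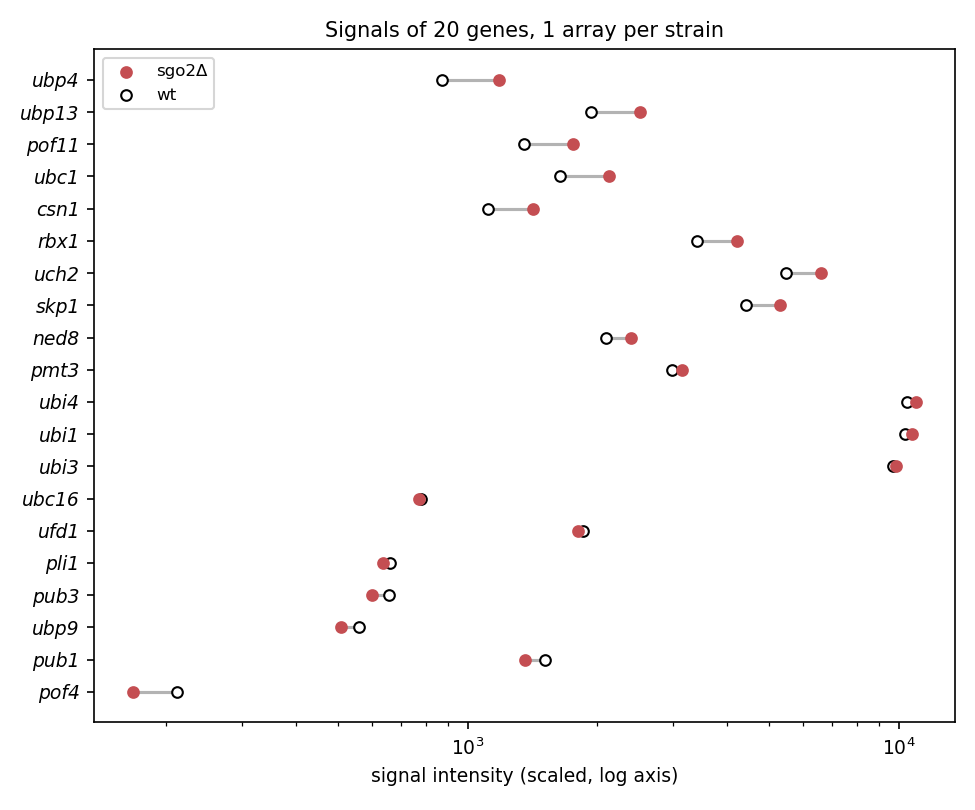
Signal intensities (log axis) of 20 genes, namely the 8 members above their band, the 5 modifier genes and the 7 members with a log2 ratio below 0. Red points are *sgo2*Δ and open points wt, 1 array each, joined by a grey line, and there are no error bars because no strain has a second array. The widest gaps are those of *ubp4* (1182 in *sgo2*Δ and 871 in wt) and *ubp13* (2517 and 1929 in *sgo2*Δ and wt), and the 3 ubiquitin genes lie together near the top of the scale.

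The ubiquitin proteases held the 2 members that passed 1.3-fold. The signal of *ubp4* was 1182 in *sgo2*Δ cells and 871 in wt cells, 1.36-fold higher (log2 ratio 0.44, band -0.13 to 0.29). It was the 52nd largest ratio of all 2796 genes and stood 0.15 above the upper edge of its band. The signal of *ubp13* was 2517 in *sgo2*Δ cells and 1929 in wt cells, 1.305-fold higher (0.38, band 0.0037 to 0.34). The current name of *ubp13* is *pan2*, a subunit of a deadenylase that shortens poly(A) tails, so it carries a ubiquitin protease name without that activity. Under current names 1 member, *ubp4*, therefore passed 1.3-fold.
A further gene above its band was *uch2*, for the ubiquitin hydrolase of the proteasome, at 6607 in *sgo2*Δ cells and 5486 in wt cells (0.27, band -0.04 to 0.23). The remaining 15 of the 18 genes lay inside their bands. For the other proteasome-bound protease, *ubp6*, the signal was 3016 in *sgo2*Δ cells and 2694 in wt cells (0.16). For *ubp8*, the protease of the SAGA complex that acts on histone H2B, it was 847 in *sgo2*Δ cells and 732 in wt cells (0.21). The ratio of *ubp6* was at the median of the class (0.16), and that of *ubp8* at its upper quartile (0.21). The lowest of the class was *ubp9*, with a signal of 510.0 in *sgo2*Δ cells and 561 in wt cells (-0.14, band -0.21 to 0.37), and it was the only one of the 18 below 0.

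The 6 COP9 signalosome genes formed the tightest class with at least 3 members. All 6 lay above the median of all genes, with a median log2 ratio of 0.23 and an SD of 0.05 across genes, against 0.14 across all members. The largest was that of *csn1*, with a signal of 1416 in *sgo2*Δ cells and 1113 in wt cells (0.35, just above its band of -0.09 to 0.34). The catalytic subunit gene *csn5* read 4330 in *sgo2*Δ cells and 3700 in wt cells (0.23). The others ran from 0.19 for *csn2* to 0.25 for *csn3* and lay inside their bands. The name *csn71* is that of the Csn7 subunit (0.24). As all members of a class share the same pair of arrays, a class that lies together is 1 observation of these arrays and not a set of independent ones.

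The 5 member genes of the SUMO route, *pmt3* and *hus5* included, had a median log2 ratio of 0.12, near that of all genes. The SUMO proteases *ulp1* and *ulp2* had ratios of 0.22 and 0.12. The SUMO ligase gene *pli1* had a signal of 636 in *sgo2*Δ cells and 660 in wt cells (-0.05), inside its band (-0.19 to 0.35). Of the 2 genes tied to the segregase Cdc48, *ufd2*, which encodes a chain-extending ligase, had a log2 ratio of 0.20. The cofactor gene *ufd1* had a signal of 1798 in *sgo2*Δ cells and 1856 in wt cells (-0.05), marginally under its band (-0.04 to 0.38).

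**Figure D3:**
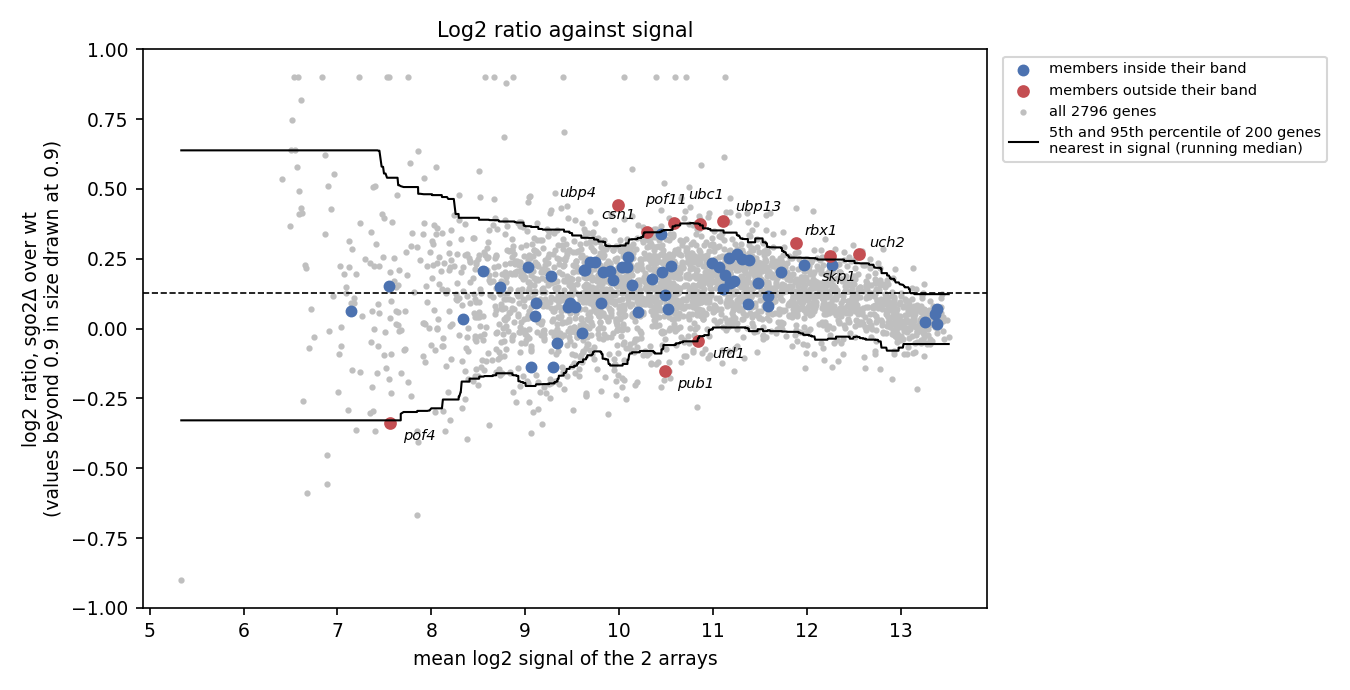
Log2 ratio (*sgo2*Δ over wt, vertical axis) against the mean log2 signal of both arrays for 2796 genes (grey), with members in blue or, outside their own band, in red. Black lines are smoothed edges of the central 90% of the 200 genes nearest in signal, and ratios beyond 0.9 in size are drawn at 0.9. The band narrows with signal, so that *skp1* at 0.26 lies above it while *ubc12* at 0.15 has a band from -0.34 to 0.54.

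Across the 67 genes the log2 ratio had a weak relation with signal (Pearson's r = 0.24, Spearman's rho = 0.27), where that over all genes was -0.05 and -0.10. With gene length on a log2 scale r was -0.01. These are descriptions over genes that share both arrays, and genes are not replicates.

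The place of the genes on the chromosomes was taken as their order among protein-coding genes in the gene table of the assembly ASM294v3. The 15 genes whose *sgo2*Δ signal was 2-fold higher or more all lay on chromosomes I and II, the farthest as the 36th gene from an end. A stretch of 36 genes was therefore set by these ratios, and the 23 genes measured in it had a median log2 ratio of 1.12, given as a description. No member lay there, and 58 lay beyond it on these chromosomes. Over all genes 23 lay in it and 2303 beyond, so hardly any gene of a group of this size would be found there. The nearest member on these chromosomes was *ubc16*, the 61st gene from an end of chromosome II (-0.02). Next was *pop2*, the 82nd from an end of chromosome I (0.22). On chromosome III, *pof7* was the 27th gene from an end, with a signal of 1024 in *sgo2*Δ cells and 888 in wt cells (0.21, inside its band), beside a median of 0.12 for the 24 genes measured in that stretch. By chromosome the medians were 0.20 for 29 members on chromosome I, 0.17 for 29 on chromosome II and 0.18 for 9 on chromosome III, against 0.13, 0.13 and 0.12 for all genes.

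**Figure D4:**
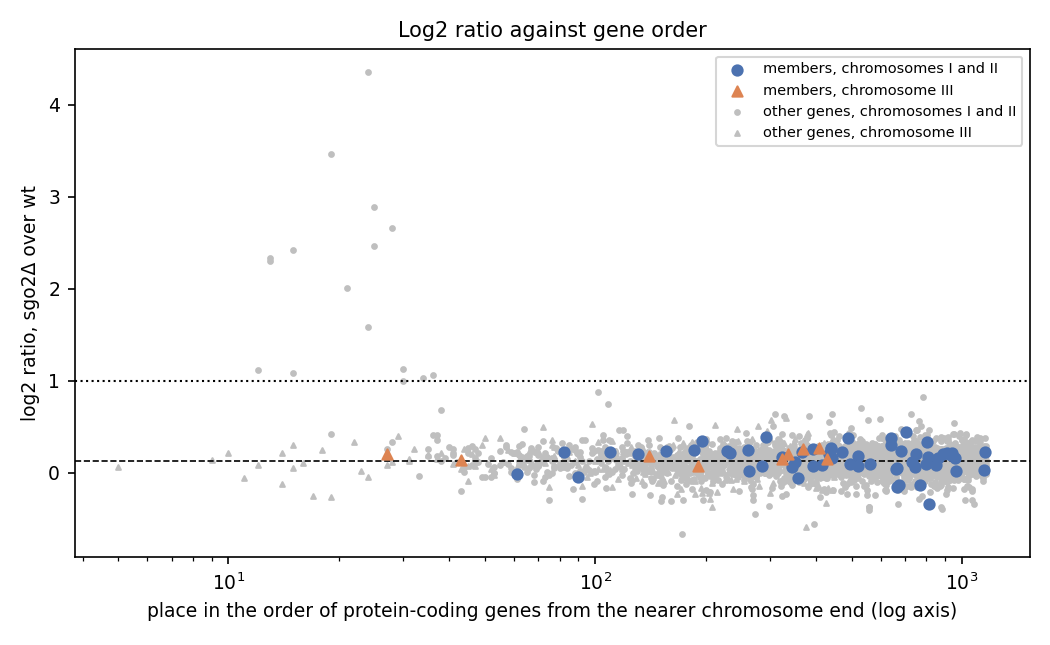
Log2 ratio (*sgo2*Δ over wt, vertical axis) against the place of each gene in the order of protein-coding genes from the nearer chromosome end (log axis). Members are blue circles on chromosomes I and II and orange triangles on chromosome III, other genes are grey, the dotted line marks 2-fold and the dashed line the median of all genes, and *sgo2* is left out for scale. Of the 15 genes on or above the dotted line the farthest is the 36th from an end, and no member reaches the line.

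A named and measured gene lay next to 52 of the members. None of these neighbours was 2-fold higher or lower, and their log2 ratios ran from -0.16 to 0.34. Only 1 pair of members adjoined each other, *skp1* and *uch2*, which lie side by side on chromosome II and had like ratios (0.26 and 0.27), both above their bands. On chromosome I, *pub1* and *ubi1* flank the same gene, *idh1*, and the 3 had log2 ratios of -0.15, 0.05 and 0.19 for *pub1*, *ubi1* and *idh1*. Over the 52 members, the log2 ratio had almost no relation with the mean of the named neighbours (Pearson's r = 0.03, Spearman's rho = 0.10), where over 2225 of all genes r was 0.20 and rho 0.07. These too are descriptions over genes that share both arrays.

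Other genes of these pathways were listed by function and not by their signals, though with earlier results of these data known. Of 55 such genes, 6 had no probe set named for them, 2 stayed under a signal of 100 and 47 were measured. None of the 47 was 2-fold higher or lower, beside 0.536% and 0.0358% of all genes. At 1.3-fold, 4 (8.51%) were higher, beside 3.54% of all genes, and none was lower, beside 0.25%. After centring none of the 47 passed 1.3-fold in either direction, beside 1.39% of all genes higher and 1.14% lower. The 47 genes had a median log2 ratio of 0.19. By the bands, 4 of the 47 (8.51%) lay above and 2 (4.26%) below, beside 5.44% and 5.4% of all genes. Of the 4 past 1.3-fold, *rad31*, a subunit of the SUMO activating enzyme, had a signal of 3045 in *sgo2*Δ cells and 2285 in wt cells (0.41). The gene *nse2*, a SUMO ligase of the Smc5-Smc6 complex, read 1612 in *sgo2*Δ cells and 1201 in wt cells (0.42). Both lay above their bands. The remaining 2, *apc14* (0.43, above its band) and *apc15* (0.41, inside it), encode subunits of the anaphase-promoting complex, a ligase that starts chromosome separation, whose 13 measured genes had a median of 0.23. The lowest ratios of the 47 were those of *sgt1* (-0.16, inside its band) and *otu1* (-0.14, below its band of -0.10 to 0.33). The gene of the ubiquitin E1, listed as *ptr3*, had a signal of 2532 in *sgo2*Δ cells and 2583 in wt cells (-0.03, also below its band, 0.0041 to 0.32). The median was 0.27 for 6 genes of SUMO and NEDD8 activation, SUMO-targeted ligases and *nse2*, and 0.22 for 13 other conjugation genes. A list of 8 genes (*cdc48*, *npl4*, *lub1*, *rhp23*, *mud1*, *otu1*, *otu2* and *sst2*) had a median of 0.10. Another list of 7 genes (*pcu4*, *ddb1*, *cdt2*, *sgt1*, *btb1*, *btb2* and *btb3*) had a median of 0.07. The cullin exchange gene *knd1* had no probe set named for it. These medians span the median of the members.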

How the data were processed

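The authors deposited linear signal intensities, scaled in GCOS 1.4 under its default settings after *S. cerevisiae* probe sets had been masked, so 5748 of 10928 rows are at 0 on both arrays and both column medians are 0. The scale factor is not given in the sources used here. Gene names came from the platform annotation, matched to the ASM294v3 gene table. Those naming several genes (20) or none (2062) were left out, so family members without a named probe set, such as *pof15* and *ubi5*, were not analysed here. Where a gene had several probe sets, their log2 signals were averaged. No test was possible with 1 array per strain.

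A gene was counted as higher or lower past 2-fold, or 1.3-fold, where its brighter signal reached 100. Each gene's band is the 5th to 95th percentile of log2 ratios of the 200 other genes nearest in mean log2 signal. Named are all modifiers, members past 1.3-fold, the 5 largest and 5 lowest ratios, the 3 brightest, those with several probe sets and examples of each role. Genes outside their bands were added after their values were seen. The members and lists were chosen with earlier results of these data known, and *csn71* was put in its class once the annotation was read. The counting at 2-fold and the bands were tested on simulated data with the same spread at every signal, unlike these arrays. Counting at 1.3-fold was not tested in this way. Alternatives were other floors, centring, quantile normalization, a pseudocount, the brightest probe set, other symbols and 1.5-fold. The tools were scipy 1.17.1, matplotlib 3.10.9, numpy 2.4.6 and pandas 2.3.3 under Python 3.11.15.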

Additional observations from a re-analysis of the deposited data

How the results depend on the processing

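No paired analysis was possible because a single array was made per strain, nor could an array be omitted. Low signal limits *pof9*, *ubc12* and *pof4*, whose bands were wide. No member was 2-fold higher or lower under any alternative run, and in the scaled signals none was past 1.5-fold. After centring, 0 members were 1.3-fold higher and 1 (*pof4*) was lower, and with quantile normalization these counts were 0 and 1 as well. With a pseudocount of 100, or with current symbols (68 genes), 1 was 1.3-fold higher. After centring the medians were 0.0498 for members, 0 for all genes, -0.0588 for modifiers, 0.0541 for E2 genes, -0.265 for HECT ligases, 0.155 for *skp1* and *rbx1*, 0.078 for F-box genes, 0.0312 for ubiquitin proteases, 0.105 for the COP9 signalosome, -0.0494 for *ufd1* and *ufd2*, and 0.0625 for the further pathway genes. By construction, centring takes 0.13 from each. With quantile normalization the medians were 0.0181 for members, -0.0186 for all genes (0.118 with a pseudocount of 100), 0.0116 for modifiers, 0.0123 for E2 genes, -0.289 for HECT ligases, 0.148 for *skp1* and *rbx1*, 0.0424 for F-box genes, -0.0535 for the SUMO ligase and proteases, -0.0097 for ubiquitin proteases, 0.0714 for the COP9 signalosome, -0.0987 for *ufd1* and *ufd2*, and 0.0251 for the further genes. The cause of the differences from the scaled values was not tested. With quantile normalization the log2 ratio of *pof4* was -0.65, past 1.5-fold, that of *pub1* -0.32 and that of *ubp4* 0.28. Of 179 values of single genes under the alternatives, 159 moved by less than the SD of genes of like signal. Most of these 159 could not move, so this count is no measure of stability. Other floors and symbols leave the ratio of a kept gene as it was, and the brightest probe set changes only *ubi3*. Only centring, quantile normalization and the pseudocount could move the other genes. The 20 others came from centring (11) and quantile normalization (9). Finding members through synonyms as well, chosen after seeing the data, also takes in *caf1* and *gsk3*, which share a synonym with members. It left every count within 1.5 times and the median of the members (0.172, 74 genes) within its interval across genes. The genes added in this way were given no role, so the class medians could not change.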
